A study of Mus musculus with 42 samples.

Results

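The drug and bile transporters described here were the 65 genes, on 80 probes, whose symbols place them in the ABC families B, C and G (Abcb, Abcc, Abcg), the organic anion transporting polypeptides (Slco) or the solute carrier family of organic ions (Slc22a), out of 20018 named genes on 26413 named probes. They held 10 Abcb, 10 Abcc, 6 Abcg, 14 Slco and 25 Slc22a genes. A probe was kept in a tissue where the scanner software called the tissue's own signal well above background on at least 3 arrays of that tissue, which kept 40 transporter genes (50 probes) in lung, 44 (53 probes) in liver and 36 (44 probes) in forestomach. Of the 65 genes, 35 were kept in all 3 tissues, 48 in at least 1, and 17 in none: Abcb5, Abcc12, Abcg3, Slc22a2, Slc22a3, Slc22a8, Slc22a12, Slc22a14, Slc22a16, Slc22a20, Slc22a22, Slc22a26, Slc22a27, Slco1a6, Slco5a1, Slco6c1 and Slco6d1. Just inside that limit stood Abcg4 in liver, on 3 arrays, and just outside it Slco1b2 in forestomach, on 2. No transporter probe was saturated.

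Male Muta™Mouse, a transgenic mouse carrying a bacterial reporter gene for mutation assays, were about 11 weeks old and were gavaged daily for 28 days with benzo(k)fluoranthene in olive oil, or with olive oil alone. Vehicle mice formed group D0, and the daily dose per kg of body weight was 25 mg in D1, 50 mg in D2 and 100 mg in D3, with tissues taken 72 h after the final gavage. RNA of 15 mice, labelled with Cy5, was hybridised on 42 2-colour arrays against a universal mouse reference RNA labelled with Cy3, with 4, 3, 4 and 4 lung arrays, 4, 2, 3 and 4 liver arrays, and 4, 3, 4 and 3 forestomach arrays at D0, D1, D2 and D3. Each array of a tissue held a separate mouse. All values are log2 ratios of sample to reference RNA, so that 0 is the level of the reference and 1 unit is a doubling, and values of different probes cannot be set against each other. RNA came from pieces of whole tissue, in which fewer cells of a type and less RNA per cell cannot be told apart.

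Transporters decide which drugs, bile acids and conjugates enter a cell and leave it. In hepatocytes, Slco and Slc22a carriers on the blood side take up organic anions and cations, ABC pumps of the canalicular membrane push bile acids, phospholipid, sterols and conjugates into bile, and other ABC pumps return conjugates to blood. Benzo(k)fluoranthene is a ligand of the aryl hydrocarbon receptor (AhR), which switches on cytochrome P450 genes and whose activation is known to be able to alter some transporter genes.

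The exposure itself was visible in some AhR targets. Of 5 listed, 3 were called in lung at D2 and 3 at D3, against 0.0153% and 0.0336% of all probes. In liver and forestomach 0 were called at any dose. At D3 in forestomach, 4 were higher and 1 lower. Cyp1a1, the P450 most typical of AhR activation, was higher by 6.29 in lung at D2 (SE 0.75, limma with Benjamini-Hochberg adjusted p = 0.0091) and by 6.81 at D3 (SE 0.75, adjusted p = 0.0034). In liver its values were 3.73, 7.14 and 6.26 at D2 against -0.09 to 0.23 in vehicle, where no array was well above background, and in forestomach 4.66, 3.42 and 2.08 at D3 against -0.39 to 0.60. The liver and forestomach differences did not pass the adjusted test (limma, adjusted p = 0.11 at D2 in liver and 1.00 at D3 in forestomach), although the values at these doses did not overlap with vehicle.

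Some arrays stood out in markers of other tissues or cell types, and what set them apart was not tested. The lung array of mouse 12 (D2) stood 5.25 above the median of the other lung arrays over 10 skeletal muscle markers, all 10 of them well above background, and 3.39, 3.11 and 2.96 above it over 7 macrophage, 8 squamous and 5 brown fat markers. The lung array of mouse 7 (D1) stood 3.66 above the others over 9 glandular stomach markers, and the forestomach array of mouse 16 (D3) 3.91 over 6 white fat markers. Over the lung arrays the mean of 8 heart muscle markers ran from 0.39 to 3.71, and its part in the lung values was not tested. The liver array of mouse 17 (D3) stood 4.24 above the other livers over the same muscle markers and 2.73 and 1.49 over 6 white and 5 brown fat markers, and mouse 20 (D3) 1.48 over the white fat markers. The part of these markers in the D3 liver values was not tested. In forestomach, 5 arrays (vehicle mice 1 and 4, D2 mouse 11, D3 mice 16 and 20) had a mean of 9 glandular stomach markers between 0.54 and 1.70, against up to 6.24 in the other 9. The mean of 8 hepatocyte markers was 1.44 to 3.17 in the forestomachs of vehicle mice 2 and 3, D1 mice 7, 8 and 9, D2 mice 12 and 15 and D3 mouse 17. It was 0.21 to 0.55 in the rest. The part of these markers in forestomach values of liver-type transporters was not tested. Hepatocyte markers in liver (8 of 8), lung epithelial markers in lung (7 of 7) and squamous markers in forestomach (8 of 8) were well above background on at least 3 arrays. Liver arrays sat on other slides, scans and a later scanner software version than lung and forestomach arrays, so tissue and batch cannot be told apart in contrasts with liver, and within slides the array column followed the dose on all but 2 arrays (forestomach vehicle mouse 2 and liver D3 mouse 20).

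Among vehicle mice the transporters separated the 3 tissues. Between lung and liver, 45 of 60 transporter probes (75%) differed by at least 1.5-fold at an adjusted p of at most 0.05 (limma), against 43.5% of all 34772 probes tested. Of these, 28 were lower in lung, against 18.5% of all probes, and 17 were higher, against 25%. The probes tested, transporters and others alike, were those kept in either tissue. Of the 60, 43 were kept in both, and the rest passed the filter in only 1 tissue. A probe kept only through the tissue where it is high, such as Slco1b2 or Slco4c1, is likely to be called. Between liver and forestomach 42 of 55 differed (41.5% of all 29929 probes), 26 of them higher in liver (18.8%) and 16 lower (22.7%). Between lung and forestomach 30 of 51 differed (33.5% of all 33498 probes), 13 higher in lung (18.4%) and 17 lower (15.1%). In these 2 contrasts, 42 of the 55 probes and 43 of the 51 were kept in both tissues. The median difference between lung and liver was -0.15 over the transporter probes and 0.03 over all probes.

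**Figure D1:**
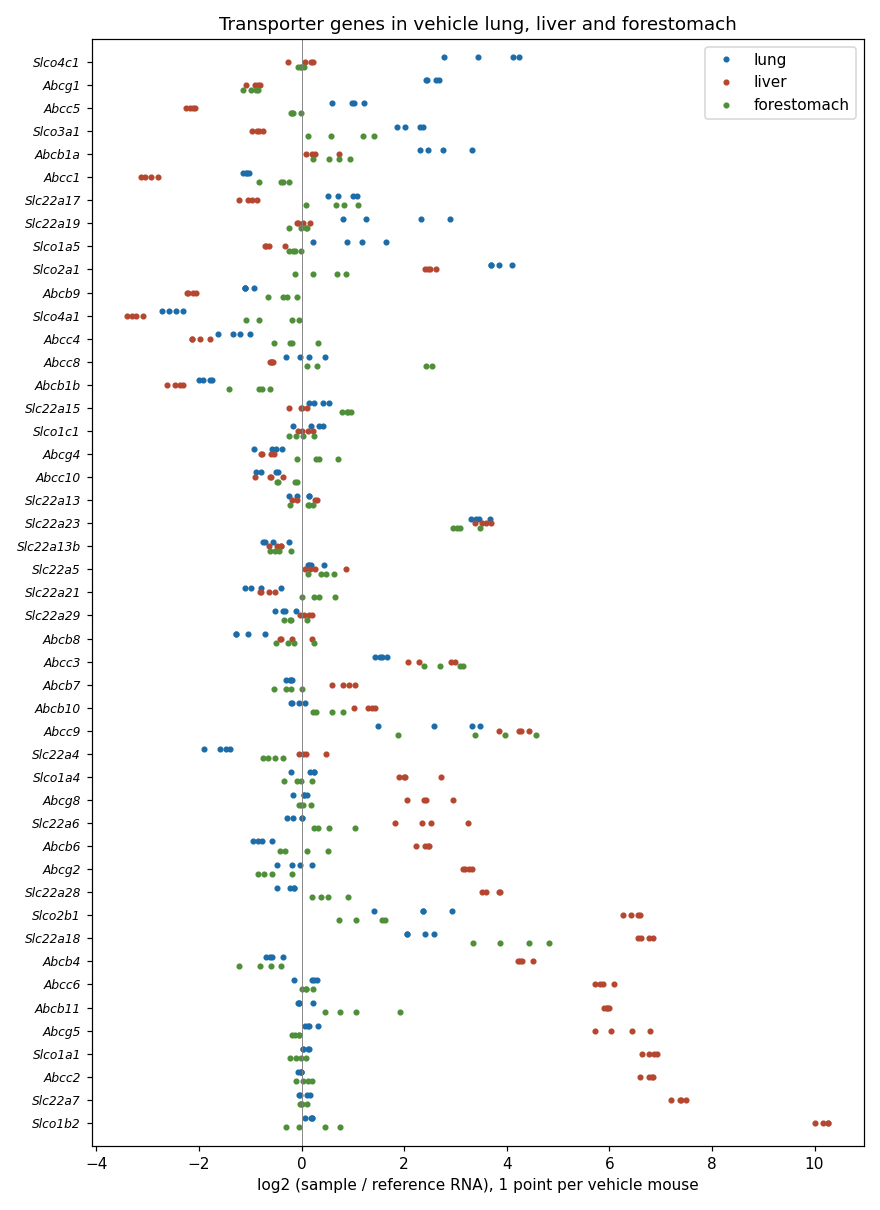
Log2 ratio of sample to reference RNA (x axis) of the main probe of the kept transporter genes reported here (y axis, ordered by the difference between lung and liver), 1 point per vehicle mouse, in lung (blue), liver (red) and forestomach (green), with 4 mice per tissue. The lowest rows, from Slco1b2 up to Abcb4, show liver points far to the right of both other tissues, and the top rows, such as Slco4c1 and Abcg1, show the lung points apart.

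Liver stood above both other tissues on 25 of the 55 probes tested in both contrasts, from 21 genes, where 14.2% of all probes did so. Some of them, such as Slco1b2, Slc22a7, Slco1a1, Abcc2, Abcg5 and Abcg8, were kept in liver alone. Among the 25 was that of Slco1b2, a hepatic uptake carrier for bile acids, bilirubin conjugates and many drugs. Its values in the 4 vehicle livers ran from 10 to 10.27, against 0.07 to 0.20 in lung, where no array was well above background, and -0.30 to 0.74 in forestomach. No lung or forestomach value came near the liver values. For other genes not well above background in a tissue, a fold is given as a bound. Such a bound sets the mean of the bright group against the faintest signal still called above background, in the sample channel alone, and is open to dye bias because no array had its dyes swapped. None is given where it came out above the fold of the log2 ratios themselves, as for Slco1b2, Slc22a7 and Abcb11.

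The other uptake carriers of the sinusoidal membrane followed. Slc22a7, an organic anion transporter, read 7.20, 7.49, 7.39 and 7.37 in liver and was well above background on no vehicle array of the other tissues, where it read -0.06 to 0.16. Slco1a1, an uptake carrier of bile acids and steroid conjugates, read 6.64, 6.76, 6.88 and 6.93, at least 74.1-fold above lung. Slco2b1, a broadly expressed uptake carrier, was also measured in the other tissues, at 6.46 ± 0.15 in liver, 2.27 ± 0.62 in lung and 1.24 ± 0.42 in forestomach (SD, n = 4). The liver values of each of these carriers lay above all values of the other tissues.

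The canalicular and apical pumps split in the same contrast. Of 8 genes, 6 were higher in liver than in lung, Abcb1a was lower and Abcb1b did not pass the test, with a median difference of -4.12 for lung minus liver. Only 4 of the 8 were kept in lung, so Abcb11, Abcc2, Abcg5 and Abcg8 entered this contrast through liver alone. Abcb11, the bile salt export pump, read 5.895, 5.95, 5.997 and 5.96 in liver and -0.08 to 0.23 in lung, where no array was well above background. Abcc2, which exports bilirubin and drug conjugates, was at least 99.2-fold higher and Abcg5, a partner in the sterol pump of bile, at least 64.8-fold higher in liver than in lung. Abcb4, the phospholipid flippase that lipids in bile depend on, read 4.32 ± 0.13 in liver and -0.57 ± 0.14 in lung (SD, n = 4), a difference of 4.89 (SE 0.28, limma adjusted p = 7.3e-17 over all probes).

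The promoters of 3 of these genes are shown, for uptake (Slco1b2), bile salt export (Abcb11) and phospholipid export (Abcb4), whose dose values follow. Each window is the 250 bases before the gene start in RefSeq on GRCm38.p6, written 5′ to 3′ on the gene's strand: chr6:141629268-141629517 on the plus strand, chr2:69342617-69342866 on the minus strand and chr5:8893471-8893720 on the plus strand. Capitals mark a match, on either strand, to the AhR core motif GCGTG or to the HNF1 core GTTAAT.
Slco1b2: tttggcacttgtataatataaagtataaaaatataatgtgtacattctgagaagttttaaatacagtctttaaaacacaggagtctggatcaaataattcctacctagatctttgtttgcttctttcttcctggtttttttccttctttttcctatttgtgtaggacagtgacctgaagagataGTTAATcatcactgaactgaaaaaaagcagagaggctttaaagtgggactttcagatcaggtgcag
Abcb11: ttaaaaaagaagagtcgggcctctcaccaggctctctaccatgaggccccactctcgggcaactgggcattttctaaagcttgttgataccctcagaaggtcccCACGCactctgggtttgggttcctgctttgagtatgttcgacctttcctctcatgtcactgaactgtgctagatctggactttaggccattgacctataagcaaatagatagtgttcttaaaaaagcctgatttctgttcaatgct
Abcb4: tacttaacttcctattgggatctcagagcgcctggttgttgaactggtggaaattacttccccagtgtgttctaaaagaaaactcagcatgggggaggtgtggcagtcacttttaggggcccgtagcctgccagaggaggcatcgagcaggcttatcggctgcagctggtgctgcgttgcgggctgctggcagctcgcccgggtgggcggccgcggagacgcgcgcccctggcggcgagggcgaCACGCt
The Slco1b2 window held 1 GTTAAT, starting 66 bases before the gene start, the Abcb11 window 1 GCGTG on the opposite strand, 146 bases before it, and the Abcb4 window 1 GCGTG on the opposite strand, 6 bases before it. The windows of Abcb1a, Abcc2, Slco1a1, Slco1a4, Slco2a1 and Slco4c1, not shown, held neither motif, so the 3 shown are not typical in this respect. GCGTG was present in 28.2% of all 32851 windows and in 18% of the 61 windows of 51 transporter genes, and GTTAAT in 6.43% and 6.56% of them. These matches describe letters in a window and no binding was measured.

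Lung stood above both other tissues on 12 of 51 probes, from 8 genes, where 13.7% of all probes did so. Of these genes, Slco4c1, Slco1a5 and Slc22a19 were kept in lung alone. Slco4c1, an organic anion carrier best known from kidney, read 4.12, 3.44, 4.24 and 2.78 in lung, and no vehicle array of liver or forestomach was well above background for it. It was at least 6.59-fold higher in lung than in liver. Abcg1, which exports cholesterol from macrophages and alveolar cells, read 2.54 ± 0.13 in lung, -0.92 ± 0.12 in liver and -0.97 ± 0.13 in forestomach (SD, n = 4), and its lung values did not overlap either. Slco2a1, the prostaglandin transporter, was highest in lung (3.83 ± 0.19), lower in liver (2.50 ± 0.09) and lowest in forestomach (0.41 ± 0.45), and each step passed the test. Abcb1a, 1 of the pair of mouse P-glycoproteins, read 2.76, 2.46, 3.31 and 2.32 in lung, against 0.32 ± 0.28 in liver and 0.61 ± 0.305 in forestomach (SD, n = 4), and the difference between those 2 did not pass the test (-0.29, SE 0.39). Abcc5, a nucleotide exporter, and Slco3a1, an uptake carrier of the same family as Slco4c1, were higher in lung than in liver by 3.11 (SE 0.13) and 2.99 (SE 0.27), and Slc22a19, an organic anion transporter, was at least 1.99-fold higher in lung than in forestomach. The other probe of Slco3a1, the brighter in lung, read 3.52 to 3.82 in lung and -0.85 to -0.65 in liver. Closely related genes such as Abcb1a and Abcb1b, or the Slco1a family, may share probe signal, which these arrays cannot separate.

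Forestomach stood above both other tissues on 8 of 46 probes, each of a different gene, where 9.22% of all probes did so. Slco4a1, a carrier of thyroid hormone and other anions, read -1.09, -0.05, -0.19 and -0.82 in forestomach, against -2.52 ± 0.18 in lung and -3.26 ± 0.13 in liver (SD, n = 4). Abcc1, which exports glutathione conjugates, read -0.46 ± 0.26 in forestomach and -2.98 ± 0.14 in liver, and Abcc4, an exporter of cyclic nucleotides and conjugates, -0.16 ± 0.36 and -2.01 ± 0.16 (SD, n = 4). Abcc3, the basolateral pump for glucuronides, read 2.83 ± 0.36 in forestomach and 2.57 ± 0.46 in liver, a difference of -0.26 that did not pass the test (SE 0.24), and was lower in lung at 1.55 ± 0.10 (SD, n = 4). Slc22a18, encoded by an imprinted gene, and Slc22a21, a carnitine transporter, were lower in lung than in forestomach by 1.84 (SE 0.33) and 1.13 (SE 0.17). Abcc8, the sulfonylurea receptor of ATP-sensitive potassium channels, had 2 low values and 2 high values in vehicle forestomach, 0.30 and 0.09 in the mice low in glandular stomach markers and 2.55 and 2.42 in the others. Its call between lung and forestomach (difference -1.27, SE 0.51, limma adjusted p = 0.035) was lost under 11 of 16 alternative settings, and the difference was -0.13 when the 5 forestomach arrays low in those markers were used alone (adjusted p = 0.68).

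No transporter probe passed the dose test in any tissue. In liver, 0 of 53 probes were called at D1, D2 or D3 by limma, against 0%, 0.0488% and 0.06% of all 26648 probes. At an unadjusted p under 0.05 there were 0, 8 and 10 transporter probes (0%, 15.1% and 18.9%), against 1.53%, 11.7% and 8.51% of all probes. The 8 at D2 include Slc22a29, which was kept only through dosed livers. The linear dose trend in liver called 0 of 53, as it called 0% of all probes, with 11 at an unadjusted p under 0.05 against 9.31%. The median change over the transporter probes was -0.003 at D2 and -0.005 at D3, beside -0.02 and -0.01 over all probes.

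Among the main probes, the clearest downward pattern in liver was that of Slc22a7. Vehicle livers read 7.20, 7.49, 7.39 and 7.37, the 2 D1 livers 7.34 and 7.28, the D2 livers 6.98, 6.79 and 7.07, and the D3 livers 6.84, 6.76, 7.13 and 6.98. All 7 livers of the upper 2 doses lay below all 4 vehicle livers, and the D1 livers overlapped them. The mean of the 8 hepatocyte markers was 7.75 to 7.93 in vehicle, 7.64 to 7.74 at D2 and 7.36, 7.34, 7.76 and 7.68 in the same order of D3 mice, and its part in the values of Slc22a7 and of the bile pumps was not tested. The difference was -0.42 at D2 (SE 0.11, limma adjusted p = 0.24) and -0.44 at D3 (SE 0.11, adjusted p = 0.22), and did not pass the test, and with the scanner software's own ratios it was -0.27 at D2. Within each of the 2 slides that held both groups the D3 value was below vehicle, by between 0.33 and 0.55.

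The differences at D3 of the uptake carriers named next and of the bile pumps were smaller in size than that of Slc22a7. Whether they moved less was not tested. At D3 Slco1b2 differed by -0.24 (SE 0.16) and Slco2b1 by 0.24 (SE 0.17). Abcb11 read 5.895 to 5.997 in vehicle, 5.96 and 6.05 at D1, 5.80, 5.63 and 5.87 at D2 and 5.58, 5.61, 5.93 and 5.70 at D3. The D2 livers lay below the vehicle range while 1 of 4 D3 livers lay within it, and the difference at D3 was -0.25 (SE 0.10, limma adjusted p = 0.52). Over the 8 canalicular and apical genes 6 were lower and 2 higher at D3, with a median of -0.15 beside -0.01 over all probes, and none passed the test. The 2 lowest D3 values of Abcb11 were those of the 2 mice lowest in the hepatocyte markers. Abcc2 differed by -0.23 (SE 0.11), Abcb4 by -0.14 (SE 0.14) and Abcg2, the breast cancer resistance pump, by -0.16 (SE 0.20). The values of Slc22a5, the carnitine transporter, overlapped at every dose.

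The largest upward difference in liver at D3 was that of Abcc3. It read 3.00, 2.07, 2.29 and 2.91 in vehicle, 3.28 and 2.75 at D1, 3.00, 3.66 and 3.35 at D2, and 3.03, 3.41, 3.18 and 3.30 at D3. All 7 livers of D2 and D3 lay above all vehicle livers, by small margins over the highest of them. The difference was 0.77 at D2 (SE 0.23, limma adjusted p = 0.26) and 0.66 at D3 (SE 0.21, adjusted p = 0.42). Abcc10, a broad-specificity exporter, differed by 0.40 at D3 (SE 0.12, limma adjusted p = 0.35) with overlapping values. Abcb9, a lysosomal peptide transporter, read above vehicle in all 4 D3 livers (difference 0.26, SE 0.09), and Slco2a1 below it in all 4 (-0.30, SE 0.12), neither past the adjusted test. Of 6 basolateral genes, 4 were higher and 2 lower at D3, with a median of 0.11.

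**Figure D2:**
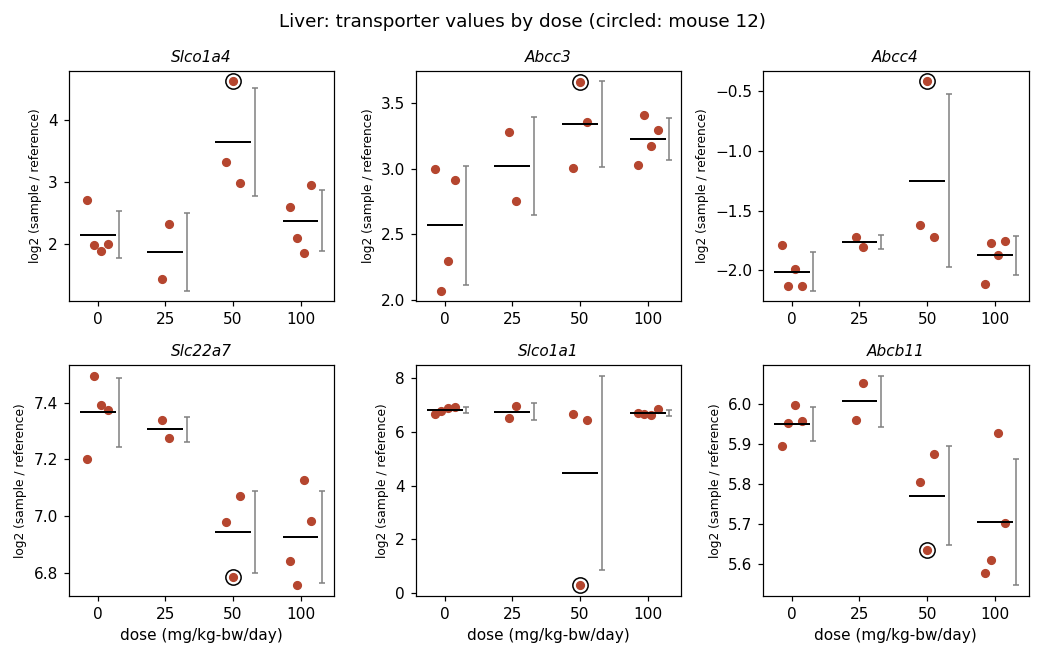
Log2 ratio of sample to reference RNA (y axis, own range per panel) of 6 transporters in liver by dose in mg/kg-bw/day (x axis, 0 is vehicle), 1 point per mouse, black line the group mean and grey bar ± 1 SD, with 4, 2, 3 and 4 mice. The circled D2 mouse 12 lies far from all other livers for Slco1a1, at 0.29, and for Slco1a4 and Abcc4, while Slc22a7 and Abcc3 separate vehicle from D2 and D3 without it.

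Several leading D2 values in liver were moved by 1 array, that of mouse 12. Slco1a1 read 0.29 there, not above background, and between 6.44 and 6.96 in the other 12 livers, dosed and vehicle alike. Slco1a4, a related carrier of bile acids and cardiac glycosides, read 4.62 in mouse 12 and 3.32 and 2.99 in the other D2 livers, against 2.71, 2.00, 1.90 and 2.02 in vehicle. Its D2 difference was 1.49 (SE 0.38, limma adjusted p = 0.20) with mouse 12 and 1.00 (SE 0.33, adjusted p = 0.43) without it, and at D3 it was 0.23 (SE 0.35). The D2 difference of Abcc4 was 0.76 with mouse 12 and 0.34 without it. Slc22a29, an orphan organic anion transporter, read 3.01 in mouse 12 and 0.85 and 0.49 in the other D2 livers, but it was well above background in no vehicle or D1 liver and was kept only through dosed livers, so no difference is read from it. The main probe of Slc22a28, a close relative of Slc22a29, went from -0.68 to -0.35. Abcb1a read 2.71 in mouse 12 and 0.09 to 1.27 in the other 12 livers.

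In all, 23 of 53 transporter probes of mouse 12 (43.4%) lay outside the range of the other 12 livers, against 28.7% of all probes. For the D2 liver of mouse 13, these shares were 20.8% and 29.7%. Genes known to be male- or female-predominant in mouse liver were then examined in mouse 12, chosen after the transporter values were seen, because Slco1a1 is known to be male-predominant and Slco1a4 female-predominant there. Of 6 male-predominant genes 5 were below all other livers, among them Cyp4a12a (1.36 against 8.21 to 9.12), Hsd3b5 (0.21 against 6.13 to 6.81) and Elovl3 (0.09 against 4.09 to 5.73), and Cyp2d9 was within the range. The female-predominant Cyp2b9 (2.96 against at most 1.04), Cyp2b10 (6.35 against at most 5.08) and Cyp2b13 (3.66 against at most 1.11) were above it. The Y-linked Ddx3y (1.85) and Eif2s3y (2.06), and Xist (-2.04), lay within the range of the other livers. What set this liver apart was not tested, and the lung and forestomach arrays of mouse 12 are separate RNA samples. Without it 12 transporter probes at D2 (22.6%) and 11 at D3 (20.8%) had an unadjusted p under 0.05, against 9.31% and 10.1% of all probes, with Slc22a29 again among the 12. Still 0 were called at either dose by limma, against 0.101% and 0.173% of all probes. The second probe of Slc22a28 was then the nearest at D3, with 3.84, 3.58, 4.04 and 4.15 against 4.35, 4.72, 4.61 and 4.53 in vehicle (-0.65, SE 0.14, limma adjusted p = 0.13), while its main probe overlapped.

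In lung, 0 of 50 transporter probes were called at D1, D2 or D3 by limma, against 0%, 0.0153% and 0.0336% of all 32697 probes. At an unadjusted p under 0.05 there were 1, 2 and 6, against 1.77%, 4.25% and 8% of all probes. The dose trend called 0 of 50, against 0.0336%, with 4 at an unadjusted p under 0.05 against 8.49%. The mean change at D3 was negative for all 4 canalicular and apical genes kept in lung, with a median of -0.49 beside 0.00 over all probes, and 2 of them had an unadjusted p under 0.05.

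Those 2 were Abcb4 and Abcb1a. Abcb4 read -0.62, -0.58, -0.37 and -0.70 in vehicle lungs, -0.96, -1.02 and -0.94 at D1, and -1.45, -1.26, -0.89 and -1.36 at D3, while at D2 it read -0.95, -0.92 and -1.003 in 3 mice and 0.60 in mouse 12. All dosed lungs other than that of mouse 12 lay below all vehicle lungs. The D3 difference was -0.67 (SE 0.28, limma adjusted p = 0.55), and without the lung array of mouse 12, which carried markers of muscle and other tissues, the same difference had an SE of 0.12 and a limma adjusted p of 0.047, past the threshold. Abcb4 was then 1 of 50 transporter probes called in lung at D3, against 0.104% of all probes, and 10 (20%) had an unadjusted p under 0.05, against 10.9% of all probes. Leaving that array out was chosen after its values were seen. It was below vehicle within all 4 slides, by between 0.52 and 0.82. Abcb1a read 1.97, 1.07, 2.65 and 0.42 at D3 against 2.32 to 3.31 in vehicle, a difference of -1.18 (SE 0.39, limma adjusted p = 0.43). The lowest D3 value, of mouse 20, came from an array on which 20 of 50 transporter probes (40%) lay outside the range of the other lungs, against 31% of all probes. Abcb1b overlapped with vehicle at every dose.

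**Figure D3:**
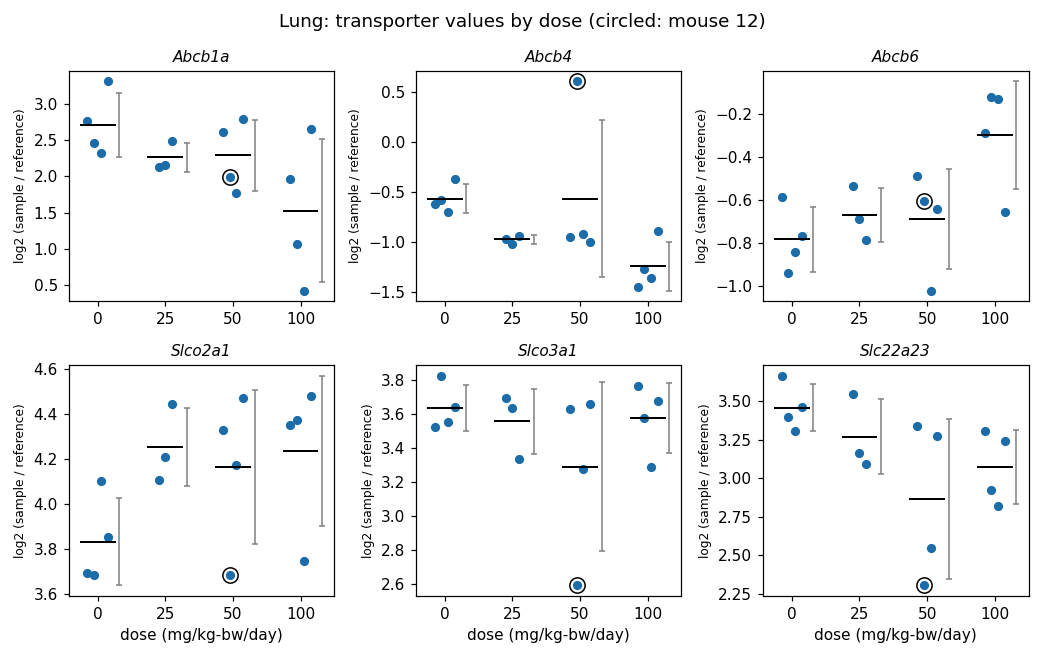
Log2 ratio of sample to reference RNA (y axis, own range per panel) of 6 transporters in lung by dose in mg/kg-bw/day (x axis, 0 is vehicle), 1 point per mouse, black line the group mean and grey bar ± 1 SD, with 4, 3, 4 and 4 mice. Abcb4 lies below vehicle in every dosed lung other than the circled mouse 12, whose value was 0.60, and the 4 Abcb1a values at D3 span 0.42 to 2.65.

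Upward values in lung were small. Abcb6, a mitochondrial porphyrin transporter, chosen after its value was seen, read -0.29, -0.12, -0.66 and -0.13 at D3 against -0.59, -0.94, -0.77 and -0.84 in vehicle (0.48, SE 0.14, limma adjusted p = 0.41). The groups overlapped by 1 mouse. Slco2a1 read 4.11, 4.21 and 4.45 at D1, above all vehicle values of 3.69, 3.69, 3.85 and 4.10, and 4.35, 4.37, 4.48 and 3.75 at D3 (0.40, SE 0.18, limma adjusted p = 0.61). The 2 probes of Slco3a1 disagreed at D3, the main one with -0.06 (SE 0.20) and the other with 0.51 (SE 0.24). Slc22a4, the ergothioneine transporter, was above vehicle in all 3 D1 lungs (0.38, SE 0.18, limma adjusted p = 1.00), near the detection limit and including mouse 7, and overlapped at D2 and D3. The Slc22a4 difference was 1.102 with the scanner software's own ratios. Abcc1, Abcg2 and Abcc4 overlapped with vehicle at every dose, and Abcc3 gave 0.26 (SE 0.13) at D3, where the fit dropped mouse 19 because its spot was an outlier.

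**Figure D4:**
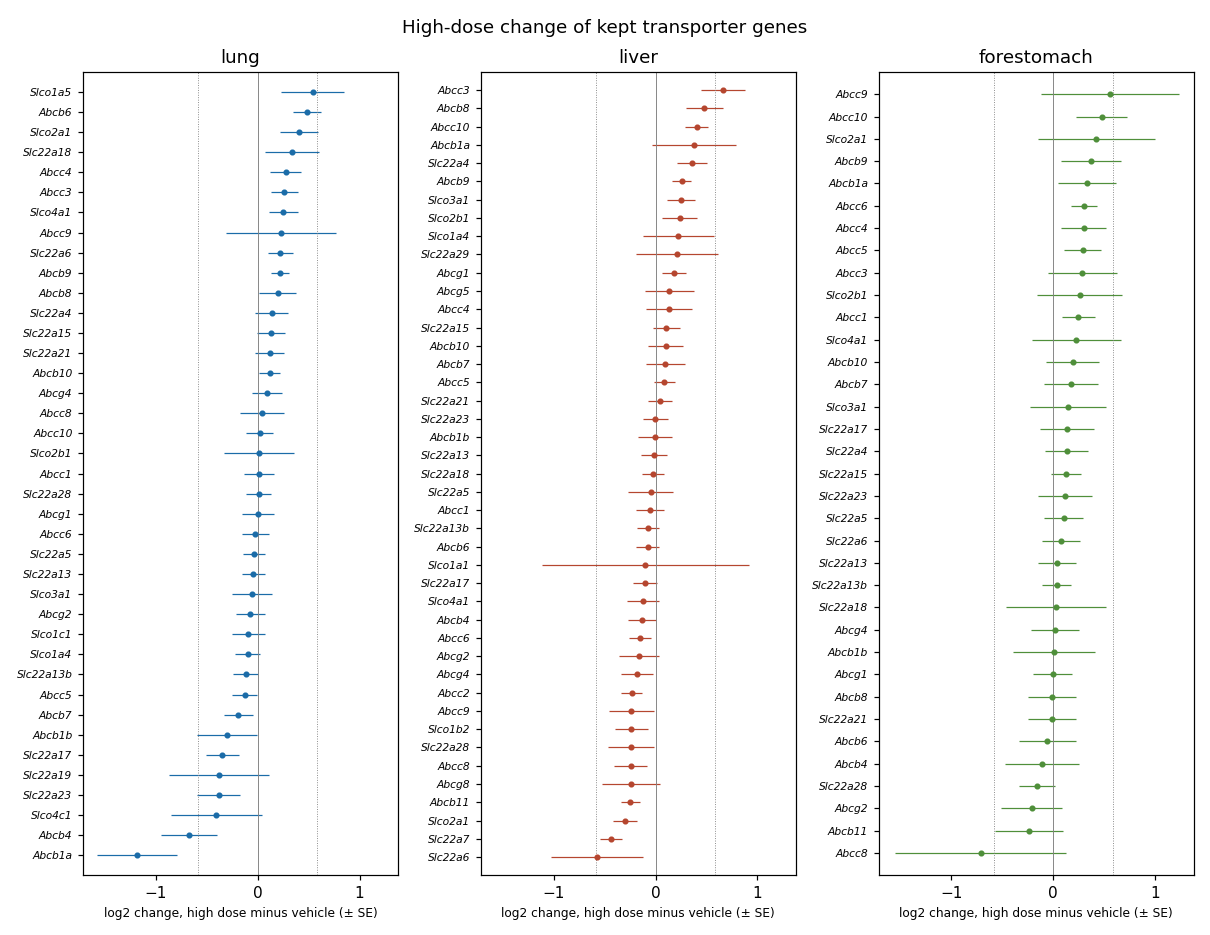
Log2 change from vehicle to the high dose (x axis) of the main probe of the kept transporter genes reported here (y axis, ordered by change) in lung, liver and forestomach, as points with bars of ± 1 SE from the limma fit. Dotted lines mark 1.5-fold, and in no panel did a gene pass the adjusted test, with Abcb1a in lung the lowest at -1.18 and Abcc3 in liver the highest at 0.66.

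In forestomach, 0 of 44 transporter probes were called at D1, D2 or D3 by limma, and 0% of all 25305 probes were called at each dose. Those with an unadjusted p under 0.05 numbered 4, 5 and 1, against 12.1%, 7.6% and 2.22% of all probes, and the 1 at D3 was Abcc6, which was kept only through dosed mice. The dose trend called 0, as it called 0% of all probes, with 1, again Abcc6, at an unadjusted p under 0.05 against 2.81%. Abcc10 read -0.46, -0.49, -0.13 and -0.09 in vehicle, 0.53, 0.47 and -0.07 at D1 and -0.03, 0.99, 0.15 and 0.11 at D2. Both dose groups lay above vehicle, D1 narrowly, and the differences were 0.60 at each dose (SE 0.25 and 0.23, limma adjusted p = 0.39 and 0.60). Slc22a15, an orphan cation and zwitterion carrier, read 0.97, 0.89, 0.78 and 0.90 in vehicle, 0.26, 0.57 and 0.71 at D1, and 0.71, 0.47, 0.38 and 0.42 at D2. It lay below vehicle at both doses (-0.37 and -0.39, limma adjusted p = 0.37 and 0.57), but at D3 it read 1.19, 0.72 and 1.11 (0.12, SE 0.15). With the scanner software's own ratios the D1 and D2 differences were -0.95 and -0.79. Over all the alternative settings the D2 difference ran from -0.79 to -0.23. The main probe of Abcc5 was above vehicle in all 4 D2 mice (0.41, SE 0.17), while its 2 other probes gave -0.08 (SE 0.23) and -0.17 (SE 0.13) with overlapping values. Abcc6 was well above background in 2 of 4 D2 mice, 2 of 3 D3 mice and no vehicle or D1 mouse, so it was kept only through the dosed mice and no difference is read from it. Single mice weighed on these values: the difference was 0.37 for Abcc10 at D2 without mouse 12 and -0.24 for Slc22a15 at D1 without mouse 7.

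Some forestomach values moved beside the glandular stomach markers. All 3 D1 mice were high in those markers, as were 2 of 4 vehicle mice, 3 of 4 D2 mice and 1 of 3 D3 mice. Of 44 transporter probes, 3 were higher in all 9 arrays high in the markers than in all 5 arrays low in them, where 3.74% of all probes were, and 0 were lower, where 0.779% were. The 3 were Slco2a1 (0.48 to 2.28 against -0.33 to 0.31), Slco4a1 (-0.34 to 1.04 against -1.14 to -0.45) and Abcb9 (-0.28 to 0.79 against -0.65 to -0.31). At D1 Abcb9 read 0.79, 0.49 and -0.08 against -0.65, -0.28, -0.08 and -0.37 in vehicle (difference 0.75, SE 0.29, limma adjusted p = 0.36). With the marker mean as a covariate the D1 differences were 0.40 for Abcb9, 0.44 for Abcc10 and -0.24 for Slc22a15, and still 0 transporter probes were called at any dose.

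**Figure D5:**
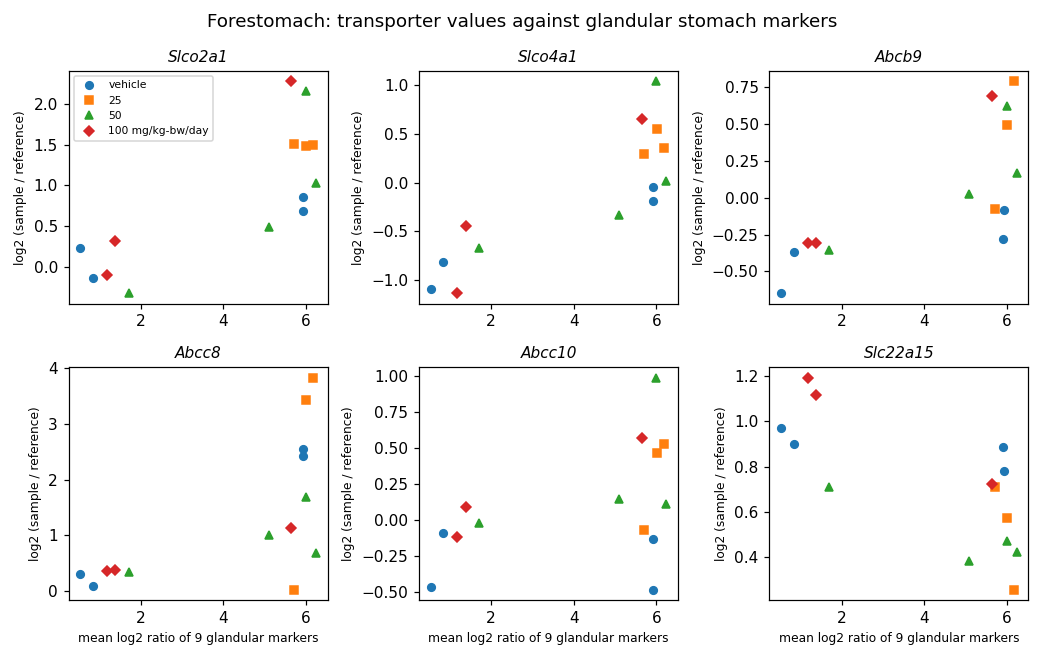
Log2 ratio of sample to reference RNA of 6 transporters in forestomach (y axis, own range per panel) against the mean log2 ratio of 9 glandular stomach markers on the same array (x axis), 1 point per mouse, with symbol and colour for dose. The 5 arrays at the left, between 0.54 and 1.70, and the 9 at the right do not overlap for Slco2a1, Slco4a1 and Abcb9.

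No transporter passed the test of a difference in high-dose effect between tissues. Between lung and liver 0 of 43 transporter probes were called by limma, against 0.0122% of all 24573 probes, with 2 at an unadjusted p under 0.05 against 5.24%. Between lung and forestomach 0 of 43 were called, against 0.0122% of 24504 probes, with 2 against 4.58%, and between liver and forestomach 0 of 42, against 0%, with 1 against 3.4%. The largest was Abcb1a, at -1.18 in lung and 0.38 in liver, a difference of -1.56 (SE 0.55, limma adjusted p = 0.73). Abcc3 differed from vehicle by 0.26 in lung, 0.66 in liver and 0.29 in forestomach.

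Genes that act with these transporters were also measured, and those named here were chosen after their values were seen. Of 8 bile acid and drug carriers outside the families kept in liver, among them Slc10a1, the sodium-dependent bile acid uptake carrier, 0 were called at D3, 3 were higher and 5 lower, with a median of -0.05. Of 10 nuclear receptors and other regulators of transporter genes 0 were called in liver at D3. Hnf4a, the factor that maintains hepatocyte genes, read 5.39, 5.60, 5.65 and 5.69 at D3, below the vehicle values of 5.87, 6.10, 5.88 and 5.88 (-0.35, SE 0.10, limma adjusted p = 0.34). Nfe2l2, the factor behind the oxidative stress response, read -0.02, 0.75 and 0.25 at D2 against -0.77 to -0.29 in vehicle (0.86, SE 0.19, limma adjusted p = 0.17).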

How the data were processed

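Gene expression was measured on 42 2-colour Agilent arrays, 1 mouse and tissue per array. Per the file headers, median spot and local background intensity values came from Feature Extraction 10.7.3.1 (lung, forestomach) or 11.0.1.1 (liver), which also gave background-subtracted, dye-normalised log10 ratios of Cy5 over Cy3. The authors also deposited a table of normalised log2 ratios.

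Median signals were turned to log2 ratios and loess normalised within arrays, without control spots and outlier flags, in R 4.3.3 with limma 3.58.1, data.table (version 1.17.8) and jsonlite 2.0.0. Probes well above background on at least 3 arrays of a tissue were tested by limma, which took the place of the MAANOVA of the study's methods, with Benjamini-Hochberg adjustment over all probes, and probes past 1.5-fold with an adjusted p no higher than 0.05 were called. Of 55681 probes, 26413 (47.4%) were named through their RefSeq accessions. A gene's main probe was its brightest in the tissue, or over all arrays in contrasts between tissues. Replicates were separate mice, and the number of arrays limits the precision.

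The transporters, gene lists and tests were chosen with earlier results of these data known. Named genes were those of any called dose effect, the 6 largest called differences each way between tissues, the 3 highest and 3 lowest whose dosed and vehicle mice did not overlap at an unadjusted p under 0.05, preset liver, lung and forestomach transporters, and AhR targets. Mouse numbers tie tissues to the same animal by the labels. Deviations from group means correlated over the same mouse by -0.196 to 0.181 (lung and liver), -0.0429 to 0.382 (lung and forestomach) and -0.216 to 0.101 (liver and forestomach). Promoters came from RefSeq (GRCm38.p6). Some genes that enter the counts and medians are not reported here by name. Alternatives were normexp background (offset 50, on median signals), the scanner's and the deposited ratios, other filters, slide and mouse blocks, fewer groups, a glandular marker covariate and leaving out single arrays. The statistics were tested on simulated data.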

Additional observations from a re-analysis of the deposited data

Results flagged for a closer look

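Named probes were checked in each group of at least 4 mice, and of these 153 sets of values 10 held 1 mouse far from the others. Chance gives about 1 in 20, so this number is near what chance gives. In lung at D2, Abcb4 read 0.6026 in mouse 12 and at most -0.9209 in the others, on the array with skeletal muscle and macrophage markers. Abcg2 read -0.1341 in mouse 15, with the nearest other at -0.3488, and Slc22a18 1.538 in mouse 13, with the nearest at 2.441.

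In liver, Slco1a4 read 2.714 in vehicle mouse 1 and 2.015 in the nearest other. At D3, Abcc10 read -0.3877 in mouse 17, the array with muscle markers, with the nearest at -0.1757, and Abcg5 read 6.932 in mouse 20, with the nearest at 6.248.

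In forestomach at D2, mouse 12 had the highest Abcc10 (0.9875, nearest 0.1471) and the lowest Abcg2 (-1.495, nearest -0.6512). Slco1b2 read 1.594 in mouse 15, with the nearest at 0.02333, and that array also had the highest mean of 8 hepatocyte markers in forestomach, 3.165. Abcc5 read -0.005578 in vehicle mouse 3, with the nearest at -0.1764. What set these arrays apart was not tested.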

How the results depend on the processing

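The 18 counts of called transporters were each recomputed under 13 to 22 alternative settings, which gave 300 values. Of these, 299 stayed within 1.5 times the count given, which for a count of 0 means 0 again. The exception was lung at D3, where leaving out the array of mouse 12, chosen after seeing the data, called 1 probe, Abcb4 (limma adjusted p = 0.047). Leaving out 1 mouse of the groups compared in turn gave 0 to 0 calls for every dose comparison, trend and difference between effects, 43 to 45 for lung against liver, 28 to 31 for lung against forestomach and 42 to 43 for liver against forestomach. Of 780 values of named genes, 768 kept their direction and call and 0 reversed. The others were that of Abcb4 and 11 of Abcc8 between lung and forestomach, whose adjusted p reached 0.678 in the 5 arrays low in glandular markers. Without vehicle forestomach mouse 2 or 3 the Abcc8 difference was -0.87 or -0.92. Leaving out 1 mouse moved the D2 liver difference of Slc22a28 between -0.86 and -0.35, the latter without mouse 12. With the mouse as a replicate block, which pairs the tissues of an animal, the Abcc8 difference stayed at -1.27 (adjusted p = 0.029) and no call changed. The scanner software's own ratios moved some values of named genes by over 1.5 times, without a change of direction or call. Among dosed groups these were Slc22a4 in lung at D1 (1.102), Slc22a7 in liver at D2 (-0.27) and Slc22a15 in forestomach at D1 and D2 (-0.95 and -0.79), beside the dim Slc22a29 and Abcc6. Between vehicle tissues they were Slco1a1, Slco4c1, Abcc1, Slc22a21, Slc22a19, Slco4a1 and Abcc4, all to larger sizes, and the cause was not tested. For Abcc10 in forestomach, the slide block gave 0.37 at D1 and the arrays low in glandular markers 0.25 at D2. The D2 difference of Slc22a15 there was as small as -0.23 among the alternatives. The deposited ratios were not run for liver, where they could not be matched to the scanner values. With 2 to 4 mice per group and dim probes near background, small changes could not be detected.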

Other observations

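The deposited log2 ratios correlated with the loess ratios of the same array, probe by probe, by at least 0.9945 in lung and forestomach, but by between -0.003009 and 0.0003371 in the 13 liver arrays. The cause was not tested, and the liver values given here all come from the scanner intensities.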
